A study of Mus musculus with 7 samples.

Results

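The complement genes described here are 9 of the 55385 gene IDs listed in each count file: the chains of C1q (C1qa, C1qb and C1qc), the central component C3, the components C4b and factor B (Cfb), the stabiliser properdin (Cfp), and the anaphylatoxin receptors C3ar1 and C5ar1. They were taken by symbol from a list and not by their values, and all 9 were found, each under 1 gene ID. They were measured by RNA sequencing in tumour-associated macrophages that were isolated by flow cytometry out of gliomas in the brains of C57BL/6 mice. Each mouse had received 100000 cells of the glioma line QPP7. The injected cells carried a hairpin against Chi3l1 (shChi3l1, 3 libraries, replicates 1 to 3) or the control hairpin shSC (4 libraries, replicates 1 to 4). Only the injected cells carried a hairpin, and the question is how macrophages differed between tumours with and without knockdown of chitinase-3-like-1. The labels give no age or sex of the mice, no clone of the line and no sort antibodies, and do not say whether each library came from a separate mouse. A p-value here sets the hairpin difference against the spread of these libraries alone, and that spread may be technical in part.

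Complement is a cascade of plasma and tissue proteins that marks targets for uptake and releases peptides that attract and activate myeloid cells. C1q binds antibody complexes and dying cells and starts the classical pathway, which cleaves C4 and C2 and then C3. The alternative pathway amplifies C3 cleavage through factor B and is stabilised by properdin, and the receptors C3aR and C5aR1 bind the released peptides C3a and C5a. In brain, microglia and macrophages are a main source of C1q, which is known for its part in synapse removal.

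The libraries held 19169129 to 36502664 reads assigned to genes. The summed level of 8 macrophage markers was 4190 to 9435 CPM (read counts brought to one common library total, scaled by TMM, a trimmed mean of ratios) in shChi3l1 and 3887 to 6735 CPM in shSC libraries, and none of the 8 was at 0 in any library. Chi3l1, listed as Chil1, had 7 to 31 reads in shChi3l1 and 18 to 28 reads in shSC libraries, which is no check of the knockdown in the tumour cells. Some libraries stood apart. ShChi3l1 3 was highest in 10 microglia markers (4155 CPM summed, against 981 to 2098 CPM in the other libraries) and in 6 B-cell markers (8718 CPM against 151 to 1876 CPM). ShSC 4 was highest in the sum of 8 astrocyte, glial and tumour markers (238 CPM against 30.8 to 66.1 CPM). Fabp7 made up 141 CPM of that sum, and Sox2, Olig2, Ptprz1 and Bcan were also highest there. Gfap (2.79 CPM, against 18.8 CPM in shSC 2), Aqp4 (0.258 CPM, against 1.32 CPM in shChi3l1 1) and Slc1a3 (14.0 CPM, against 29.6 CPM in shChi3l1 3) were not. The share of reads in genes with over 5000 exon bases was 12.6%, 20.7% and 18.6% for shChi3l1 1 to 3, against 14.8%, 19.9%, 16.8% and 19.8% for shSC 1 to 4, so libraries of both groups differed in the weight of long transcripts. In bulk libraries, fewer cells of a type and less RNA per cell cannot be told apart.

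The C1q chains were among the most abundant transcripts of the sorted cells in both groups, and no chain passed the test between hairpins. The 3 genes lie side by side on the minus strand of chromosome 4 (mm10) within 18675 bases: C1qb (ENSMUSG00000036905.8) at 136880129 to 136886187, C1qc (ENSMUSG00000036896.5) at 136889804 to 136893065 and C1qa (ENSMUSG00000036887.5) at 136895917 to 136898803. Together they took 1.31% to 2.17% of all assigned reads in a library. Per exon length, C1qb averaged 8390 ± 846 CPM per kilobase of exon (RPKM; SD, n = 3) in shChi3l1 and 6867 ± 1692 RPKM (SD, n = 4) in shSC libraries, rank 8 of the 15448 genes tested. C1qa averaged 3974 ± 394 RPKM (SD, n = 3) in shChi3l1 and 2910 ± 946 RPKM (SD, n = 4) in shSC libraries, rank 19. C1qc, at 3265 ± 192 RPKM (SD, n = 3) in shChi3l1 and 2840 ± 629 RPKM (SD, n = 4) in shSC libraries, had rank 23. C1qb was above C1qa in 7 of 7 libraries, whereas C1qa was above C1qc in only 5 of 7, so the order of these neighbours was within their spread.

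C1qa, the A chain, had 4522, 3705 and 4172 CPM in shChi3l1 1 to 3, against 3852, 2650, 3795 and 1806 CPM in shSC 1 to 4. C1qb, the B chain, had 9705, 8066 and 9613 CPM in shChi3l1 libraries, against 8515, 7109, 9219 and 5043 CPM in shSC libraries. C1qc, the C chain, had 5954, 6271 and 6692 CPM in shChi3l1 libraries, against 6600, 5140, 6272 and 3923 CPM in shSC libraries. ShSC 4 was the lowest library for each chain, and the groups overlapped for all 3. Log2 fold changes (shChi3l1 over shSC, edgeR's quasi-likelihood test) were 0.45 (SE 0.38, 95% interval -0.41 to 1.31) for C1qa, 0.29 (SE 0.36, -0.52 to 1.10) for C1qb and 0.20 (SE 0.35, -0.58 to 0.98) for C1qc. All had an adjusted p of 0.9998 over all tested genes. Without shSC 4, the library highest in summed glial and tumour markers, they were 0.27 for C1qa, 0.14 for C1qb and 0.07 for C1qc. ShSC 4 was also the lowest library in the sum of 10 microglia markers (981 CPM) and of 8 monocyte-derived macrophage markers (758 CPM). Its 8 macrophage markers summed to 6735 CPM, the highest among shSC libraries. The part of any of these cells in the low C1q of shSC 4 was not tested.

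The share of C1qb among the chains varied little between libraries, and those of C1qa and C1qc varied more. By RPKM, and with the SD over 3 and 4 libraries, C1qb made up 53.6% ± 1.31 of the summed chains in shChi3l1 and 54.6% ± 1.49 in shSC libraries. C1qa made up 25.4% ± 1.05 in shChi3l1 and 22.7% ± 1.88 in shSC libraries, and C1qc 21.0% ± 2.00 in shChi3l1 and 22.7% ± 1.25 in shSC libraries. The share of C1qa was lowest, at 20.7%, in shSC 4 and highest, at 26.6%, in shChi3l1 1. That of C1qc was lowest, at 18.9%, in shChi3l1 1 and highest, at 24.2%, in shSC 4. Over the 7 libraries C1qb differed by 1.92-fold, C1qc by 1.71-fold and C1qa by 2.5-fold between the highest and the lowest. The SD of log2 CPM over the libraries was 0.33 for C1qb and 0.27 for C1qc, smaller than in most tested genes of similar level (15.8% of 19 such genes and 8% of 25 had a smaller SD).

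**Figure D1:**
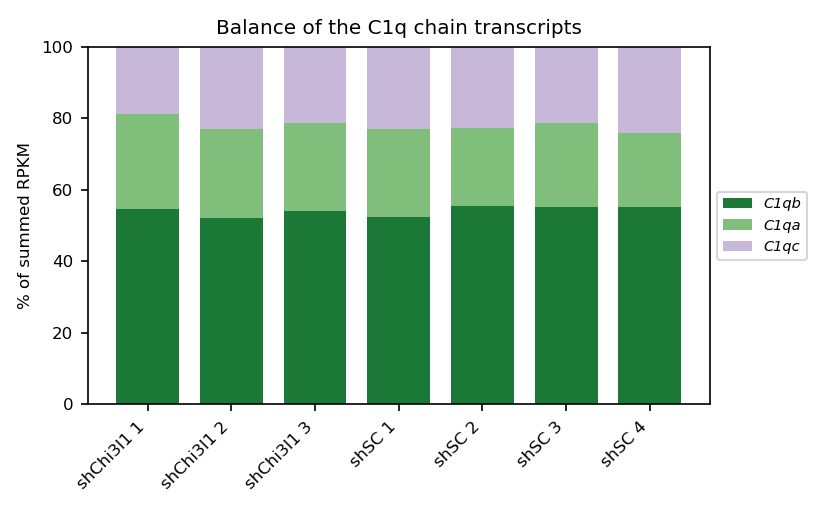
Share of each C1q chain in the summed RPKM of the 3 chains (y axis, percent) in each of the 3 shChi3l1 and 4 shSC libraries (x axis). C1qb makes up 52.1% to 55.6% of the sum in every library.

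The stretches upstream of the C1q genes are shown because the chains had like profiles over the libraries, and that of C3 because its profile was unlike theirs. RefSeq's promoter table (GRCm38.p6) held 6 of the 9 genes, and C1qa, C4b and Cfb were not among them. The sequences run 5′ to 3′ on the minus strand, and bases within an annotated transcript were left out: C1qb from chr4:136886201-136886450, C1qc from chr4:136893066-136893164 and C3 from chr17:57228137-57228386. Capitals mark matches to 2 motifs chosen after the sequences had been seen, the core GAGGAAG of PU.1, a factor of myeloid cells, and the C/EBP pattern TTNCNNAA, each read on both strands. C1qc holds 1 PU.1 core (and 1 C/EBP pattern in the part of its window not shown), and C3 holds 3 C/EBP patterns whose last bases, as printed, lie 63, 51 and 38 bases before the transcription start. C1qb holds neither motif, and the window of C5ar1, not shown, holds 1 C/EBP pattern. Of 32851 promoter windows of 250 bases, 10.6% hold at least 1 PU.1 core and 36.8% at least 1 C/EBP pattern. The share of windows with 3 was not counted. The interferon-gamma motif TTCNNNGAA, held by 7.02% of windows, was in none of the 6. A match only says that these letters are there.
C1qb: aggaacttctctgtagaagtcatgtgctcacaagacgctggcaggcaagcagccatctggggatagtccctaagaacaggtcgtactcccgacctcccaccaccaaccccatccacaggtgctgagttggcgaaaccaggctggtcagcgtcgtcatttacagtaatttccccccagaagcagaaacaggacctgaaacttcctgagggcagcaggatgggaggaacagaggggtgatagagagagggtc
C1qc: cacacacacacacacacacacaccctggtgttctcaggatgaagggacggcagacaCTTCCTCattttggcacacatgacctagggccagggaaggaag
C3: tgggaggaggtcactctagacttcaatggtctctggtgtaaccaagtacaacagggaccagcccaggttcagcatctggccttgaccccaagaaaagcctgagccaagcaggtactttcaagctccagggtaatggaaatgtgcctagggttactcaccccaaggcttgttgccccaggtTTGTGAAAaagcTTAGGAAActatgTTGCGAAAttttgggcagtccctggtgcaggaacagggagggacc

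C3, C4b and Cfb varied more over the 7 libraries than the C1q chains, and none of them passed the test between hairpins. C3 (ENSMUSG00000024164.15, chromosome 17, 57203970 to 57228136, minus strand), the protein at which all pathways meet, had 108, 1155 and 315 CPM in shChi3l1 1 to 3, against 113, 605, 113 and 277 CPM in shSC 1 to 4. It was highest in replicate 2 of each group, at 108 to 113 CPM in shChi3l1 1, shSC 1 and shSC 3, and the groups overlapped. The highest library was 10.7-fold above the lowest, and the SD of its log2 CPM, 1.34, exceeded that of 98.7% of 870 tested genes of similar level. It averaged 526 ± 555 CPM (SD, n = 3) across shChi3l1 libraries, against 277 ± 232 CPM (SD, n = 4) across shSC libraries. The fitted log2 fold change was 0.93 (SE 0.83, 95% interval -0.95 to 2.80, edgeR adjusted p = 0.9998). The direction rested on shChi3l1 2, without which the log2 fold change was -0.39 (SE 0.79).

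C4b (ENSMUSG00000073418.4, chromosome 17, 34728380 to 34743882, minus strand), the C4 of the classical and lectin pathways, had 6.26, 189 and 194 CPM in shChi3l1 1 to 3, against 26.7, 78.1, 25.5 and 52.3 CPM in shSC 1 to 4. ShChi3l1 held both the lowest library and the 2 highest, and the lowest value rests on 147 reads. The range was 31.1-fold, and 99.9% of 2704 tested genes of similar level had a smaller SD of log2 CPM than its 1.76. The log2 fold change was 1.51 (SE 0.88, 95% interval -0.48 to 3.5, edgeR adjusted p = 0.9998). The plain difference of mean log2 CPM was 0.59 (p = 0.771 by an exact permutation test, two-sided). With shChi3l1 1 left out, edgeR gave a log2 fold change of 2.04 (SE 0.46, unadjusted p = 0.00173 and adjusted p = 0.750 by edgeR), beside 5.61% of all genes at an unadjusted p under 0.05 without that library. C4b has a near copy, C4a, with at most 13 reads in a library, and 34.6% of the 50-base words of C4b transcripts also occur in C4a, so reads of those stretches may be missing from its count.

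Cfb (ENSMUSG00000090231.10, chromosome 17, 34856374 to 34862518, minus strand), the protease precursor of the alternative pathway, had 27.3, 159 and 55.2 CPM in shChi3l1 1 to 3, against 27.8, 76.6, 41.1 and 45.9 CPM in shSC 1 to 4. Replicate 2 was highest, as for C3, and replicate 1 lowest in each group, and the groups overlapped. Its log2 fold change was 0.75 (SE 0.58, 95% interval -0.57 to 2.06, edgeR adjusted p = 0.9998), and -0.22 (SE 0.50) without shChi3l1 2. Without shChi3l1 1 it was 1.13 (SE 0.48, unadjusted p = 0.0456 and adjusted p = 0.750 by edgeR), so that Cfb and C4b, 2 of the 9 genes, had an unadjusted p under 0.05 there, beside 5.61% of all genes. The annotated gene Gm20547, listed at 0 reads in every library, covers 79.5% of the exon bases of Cfb on the same strand. How reads within both were counted is not given in the sources used here, so the level of Cfb may be understated and is not set against other genes.

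Transcript length and library-to-library spread went together for some of the 9 genes and not for others. The exons of C3 and C4b span 5143 and 5695 bases and those of C1qa, C1qb and C1qc 1040, 1088 and 1931 bases. C3ar1, with 4305 exon bases, had an SD of log2 CPM of only 0.31, whereas Cfb, with 2825, had 0.89. The 3 libraries with the lowest C3 were also the 3 with the smallest share of reads in genes over 5000 bases. When each library's trend of log2 CPM with exon length was subtracted, C3 kept deviations of 1.87 in shChi3l1 2 and 0.98 in shSC 2, against 2.14 and 1.21 before. In shChi3l1 1, shSC 1 and shSC 3 it kept -0.96, -0.80 and -1.14. The SD over libraries was then 1.11 for C3 in place of 1.34, 1.53 for C4b in place of 1.76, and 0.90 for Cfb in place of 0.89. The C1q chains shifted too. In shChi3l1 1, C1qa went from 0.43 to -0.14, C1qb from 0.28 to -0.27 and C1qc from 0.05 to -0.28. Their SDs were then 0.46, 0.36 and 0.31, in place of 0.46, 0.33 and 0.27. With that trend as an offset in the edgeR test, chosen after seeing the data, log2 fold changes were 0.83 (SE 0.69) for C3, 1.36 (SE 0.76) for C4b and 0.80 (SE 0.57) for Cfb.

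**Figure D2:**
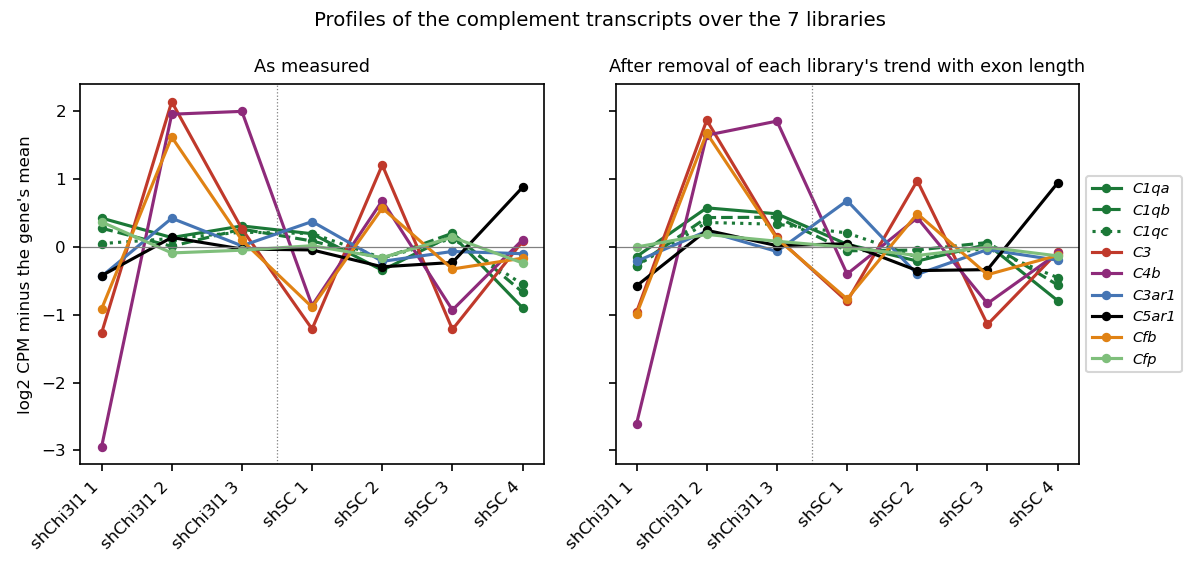
Log2 CPM minus the gene's mean (y axis) for the 9 complement genes in the 3 shChi3l1 and 4 shSC libraries (x axis), as measured (left) and with the exon-length trend of the library subtracted (right). Lines only join the points of a gene. C3 and Cfb peak in replicate 2 of both groups in both panels, C4b spans -2.95 to 2.00 as measured, and the C1q chains are lowest in shSC 4 in both panels.

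Properdin was the most even of the genes, and neither receptor passed the test between hairpins. Cfp (ENSMUSG00000001128.7, chromosome X, 20925454 to 20931555, minus strand) had 441, 321 and 330 CPM in shChi3l1 1 to 3, against 346, 306, 377 and 290 CPM in shSC 1 to 4. The range was 1.52-fold and the groups overlapped. Its log2 fold change of 0.14 (SE 0.31, 95% interval -0.56 to 0.85, edgeR adjusted p = 0.9998) was -0.06 when library totals were not scaled by TMM and -0.05 without shChi3l1 1. C3ar1 (ENSMUSG00000040552.8, chromosome 6, 122847138 to 122856161, minus strand), the C3a receptor, had 257, 466 and 351 CPM in shChi3l1 1 to 3, against 451, 300, 332 and 324 CPM in shSC 1 to 4. ShChi3l1 held its highest and its lowest library. The log2 fold change was 0.03 (SE 0.35, 95% interval -0.76 to 0.81, edgeR adjusted p = 0.9998), and it was -0.03 with DESeq2 size factors and -0.13 with unscaled library totals.

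C5ar1 (ENSMUSG00000049130.6, chromosome 7, 16246743 to 16259540, minus strand), the C5a receptor, had 192, 283 and 252 CPM in shChi3l1 1 to 3, against 249, 210, 219 and 473 CPM in shSC 1 to 4. ShSC 4 stood above all other libraries, and the other 3 shSC libraries lay within the shChi3l1 range. The log2 fold change was -0.25 (SE 0.39, 95% interval -1.14 to 0.64, edgeR adjusted p = 0.9998), and 0.10 (SE 0.35) without shSC 4. That library was also highest in summed glial and tumour markers. Of the 8 macrophage markers, Cd14 was second-highest there, at 3578 CPM. Fcgr1 (177 CPM) and Aif1 (672 CPM) were lowest there, and the others lay in between. The part of glial, tumour or other cells in its C5ar1 level was not tested. Per exon length, Cfp averaged 210 ± 38.4 RPKM (SD, n = 3) in shChi3l1 and 190 ± 22.7 RPKM (SD, n = 4) in shSC libraries, and was above C5ar1 in 6 of 7 libraries. C5ar1 averaged 94.2 ± 18.1 RPKM (SD, n = 3) in shChi3l1 and 112 ± 48.6 RPKM (SD, n = 4) in shSC libraries. C3ar1 averaged 83.2 ± 24.3 RPKM (SD, n = 3) for shChi3l1 and 81.7 ± 15.6 RPKM (SD, n = 4) for shSC. C3 averaged 102 ± 108 RPKM (SD, n = 3) in shChi3l1 and 53.9 ± 45.1 RPKM (SD, n = 4) in shSC libraries, and C3ar1 was above C3 in 5 of 7 libraries, within their spread. C5ar1 was above C3ar1 in 6 of 7 libraries, although their means differed by less than the SD of C5ar1 in each group. C4b, at 22.8 ± 18.8 RPKM (SD, n = 3) in shChi3l1 and 8.01 ± 4.37 RPKM (SD, n = 4) in shSC libraries, was below C3 in every library.

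**Figure D3:**
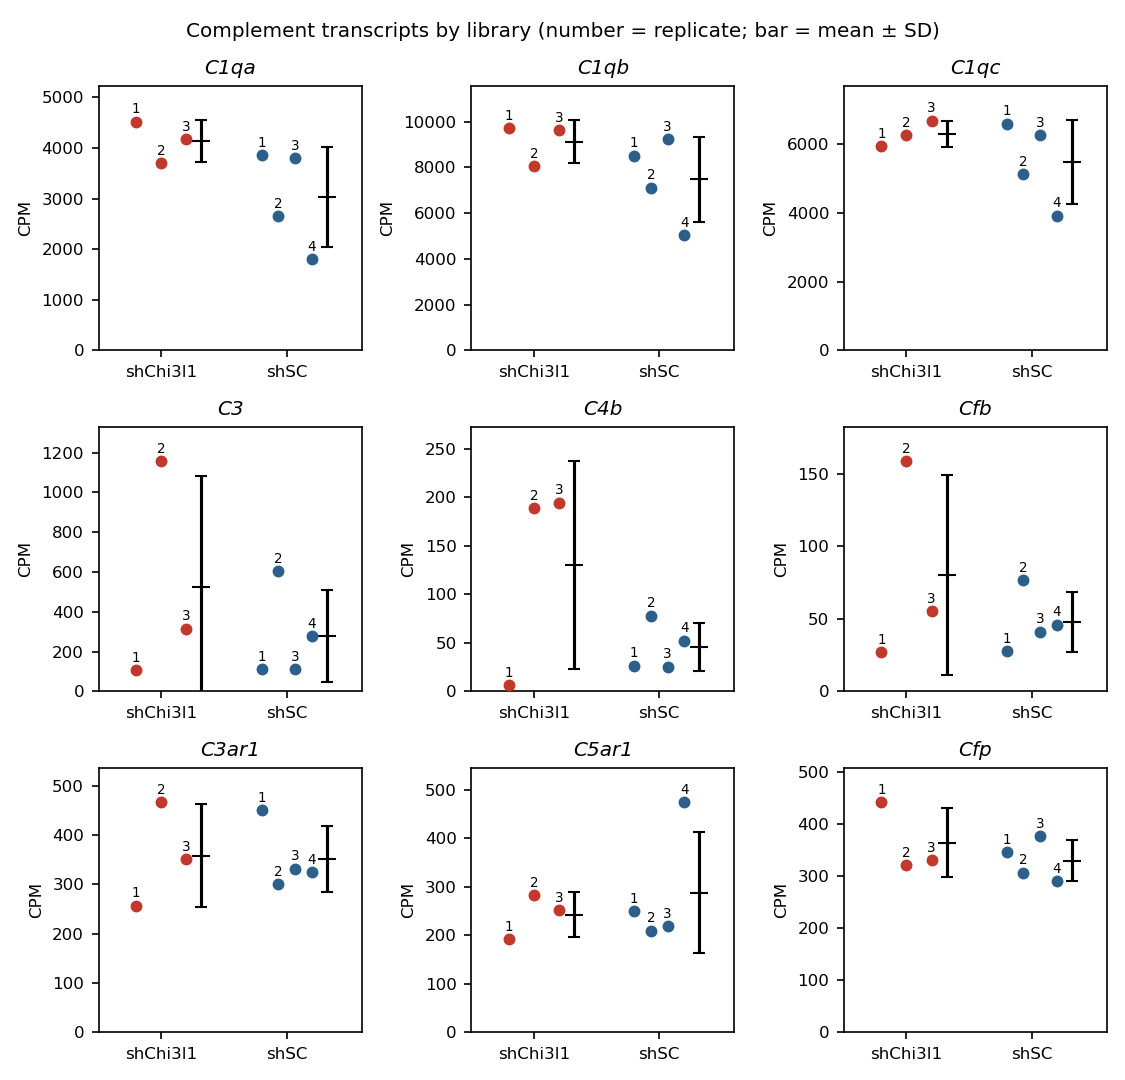
CPM (y axis, from 0) of the 9 complement genes in the 3 shChi3l1 (red) and 4 shSC (blue) libraries, each point a library with its replicate number, and a bar for the mean ± SD beside it. The SD of C3 in shChi3l1 exceeds its mean and its bar is cut at 0, and the points of the 2 groups overlap for every gene.

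None of the 9 genes separated the hairpins. Of the 9 genes, 0 passed an adjusted p of 0.05 in edgeR's test, as did 0% of the 15448 genes tested. With no adjustment, 0 of 9 had a p under 0.05, beside 1.48% of all tested genes in either direction and 0.906% in the higher direction. Limma's voom with sample quality weights called 0 of 9 and had 1, C4b (log2 fold change 1.69, unadjusted p = 0.0418, adjusted p = 0.942), beside 4.54% of all genes, and DESeq2's Wald test called 0 of 9, beside 0.00647% of all genes, and had 0 of 9 at an unadjusted p under 0.05, beside 2.27%. The groups did not overlap in 0 of 9 genes and in 2.49% of all tested genes (1.24% higher and 1.26% lower in shChi3l1). Log2 fold changes were above 0 in 8 of 9, at a median of 0.29, and in 57.6% of all genes, at a median of 0.07. The 95% intervals reach beyond a log2 fold change of 1 for C1qa, C1qb, C3, C4b and Cfb and below -1 for C5ar1, so equal levels are not shown.

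Within same-numbered pairs, which the labels set together in a figure of the study, the direction differed between pairs for most genes. Log2 ratios of shChi3l1 over shSC for C3 were -0.06, 0.93 and 1.48 in pairs 1, 2 and 3. For C4b they were -2.09, 1.27 and 2.93, and for Cfb -0.03, 1.05 and 0.43. C1qa was higher in shChi3l1 in 3 of 3 pairs (0.23, 0.48 and 0.14), as was C1qb (0.19, 0.18 and 0.06), beside 12.5% of all tested genes, and 0 of 9 were lower in 3 of 3, beside 10.7%. With unscaled library totals C1qb in pair 2 was at -0.06. With each library's exon-length trend subtracted, shChi3l1 1 was below shSC 1 for both genes. Their deviations from the gene's mean log2 CPM were then -0.14 against 0.04 for C1qa and -0.27 against -0.06 for C1qb. The other 7 genes were higher in 2 of 3 pairs. In pair 1 shChi3l1 was the lower library for C1qc, C3, C4b, C3ar1, C5ar1 and Cfb. In the fit with the replicate number as a block, from which the unpaired shSC 4 is absent, the log2 fold change of C3 was 0.79 (SE 0.34, unadjusted p = 0.0567) and that of Cfb 0.48 (SE 0.27, unadjusted p = 0.125) by edgeR, and 0 of 9 genes passed an adjusted p of 0.05. Under the block 0 of 9 had an unadjusted p below 0.05, beside 2.91% of genes. For C4b the block gave 0.86 (SE 1.00).

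**Figure D4:**
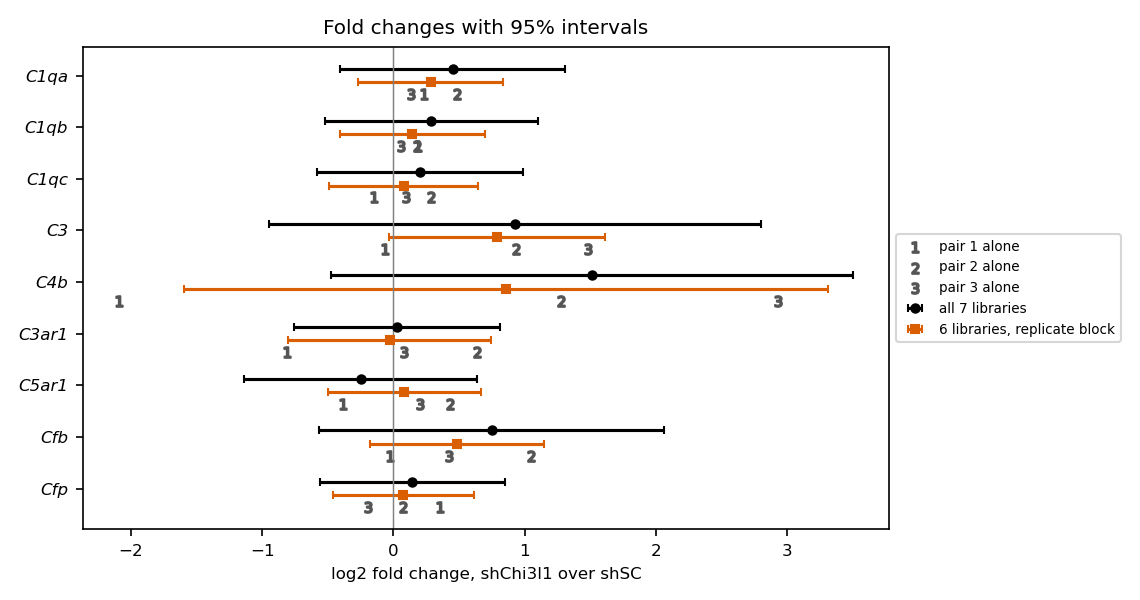
Log2 fold change of shChi3l1 over shSC (x axis) for the 9 complement genes, with 95% intervals, over all 7 libraries (black circles) and over 6 libraries with the replicate block (orange squares). Digits show the log2 ratio in each same-numbered pair, and every interval includes 0.

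The other complement genes were followed through 45 genes in lists by role, of which 26 had enough reads to be tested and 3 (Mbl1, C8a and C4bp) had no read in any library. A count of 0 allows up to 3 reads, or 0.0822 to 0.157 CPM on unscaled totals, for counting error only. None of the 26 passed an adjusted p of 0.05 in edgeR's test, and 1 (C1s1) had an unadjusted p under 0.05, beside 1.48% of all tested genes. In shChi3l1 18 were higher and 8 lower, at a median log2 fold change of 0.29, where 57.6% of all genes were higher at a median of 0.07. Without shChi3l1 3 there were 13 of 26 higher, and with unscaled totals 15 of 26. Among classical and lectin initiation genes, 7 of 13 were tested, 6 of them higher, at a median of 0.89. C1s1, the protease that cleaves C4 and C2, had 4.55, 4.87 and 2.40 CPM in shChi3l1 1 to 3, against 0.745, 2.37, 0.136 and 0.645 CPM in shSC 1 to 4 (log2 fold change 2.00, SE 0.80, unadjusted p = 0.0333, adjusted p = 0.9998 by edgeR). The groups did not overlap (2.40 against 2.37 CPM at the nearest), as in 1.24% of all tested genes, and another gene covers 18.4% of its exon bases. C2, whose exon bases are 46.9% shared with other genes, was at 1.47 (SE 0.71), and C1ra, the partner protease of C1s and the list's most abundant gene per length, at 0.89 (SE 0.51).

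Of 8 genes of the alternative and terminal pathway, 3 were tested, 1 of them higher and 2 lower, at a median of -0.39. C8g, which encodes a chain of the membrane attack complex, was at 0.60 (SE 0.45), and C6, another part of that complex, at -1.86 (SE 1.52) with at most 2.48 CPM in a library. Of 13 regulators 8 were tested, 6 of them higher, at a median of 0.13. Clu, encoding clusterin, an inhibitor of the terminal complex, was at -0.90 (SE 0.75). Susd4, which encodes a membrane protein that restrains complement, had 2.04, 0.802 and 0.0407 CPM in shChi3l1 1 to 3, against 1.06, 1.24, 0.444 and 5.25 CPM in shSC 1 to 4, at a log2 fold change of -1.05 (SE 1.13). Its highest value was in shSC 4, the library highest in summed glial and tumour markers, whose part was not tested. Cr1l, encoding Crry, the main membrane regulator of mouse cells, was the most abundant regulator per length and was at 0.25 (SE 0.41).

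Of 11 receptors and C1q-binding proteins 8 were tested, 5 of them higher, at a median of 0.19. Itgam, a chain of complement receptor 3 with 68.7% of its exon bases shared with another gene, was at 0.90 (SE 0.62). C1qbp, which encodes a mitochondrial protein that binds C1q, was at -0.38 (SE 0.34). Calr, encoding calreticulin, was the most abundant of the list per length. It had 748 ± 116 CPM (SD, n = 3) across shChi3l1, against 861 ± 185 CPM (SD, n = 4) across shSC libraries. The macrophage receptor gene Vsig4 had at most 1 read in a library.

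**Figure D5:**
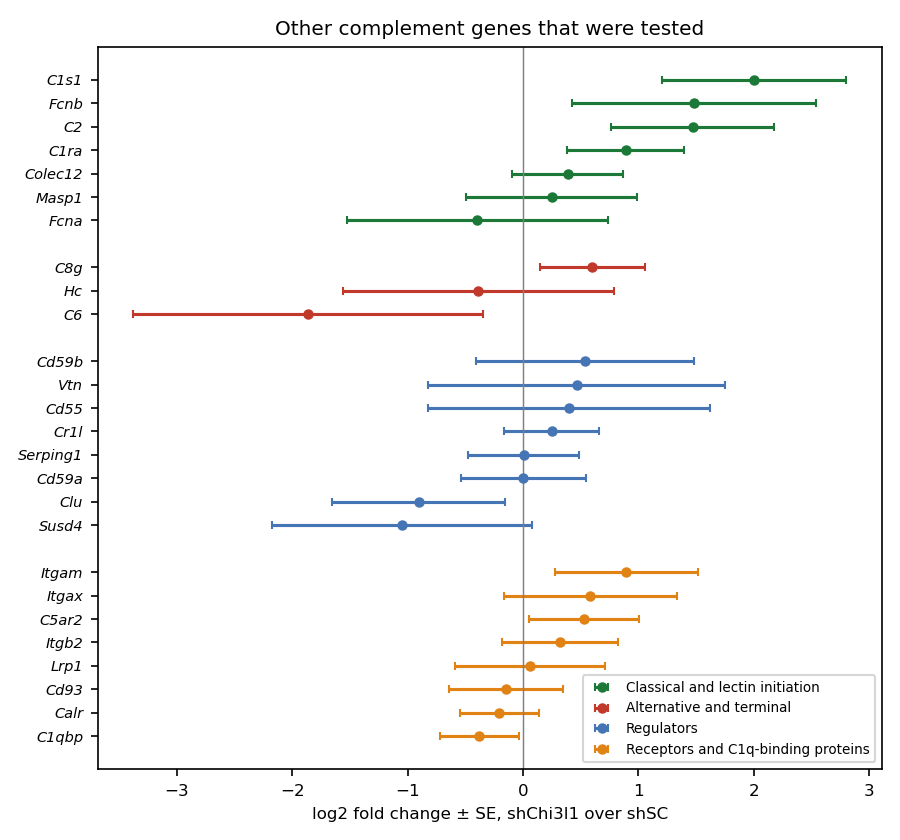
Log2 fold change of shChi3l1 over shSC with its standard error (x axis) for the 26 other complement genes that were tested, coloured by role. C1s1 lies furthest to the right, at 2.00, and C6 furthest to the left, at -1.86.

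The genes whose profiles over the 7 libraries were most like those of C1q and C3 were sought among 3369 abundant protein-coding genes, by the root mean square difference of gene-centred log2 CPM. For the mean of the C1q chains they were Tmub2 (0.08), Itm2c (0.08), Limd2 (0.09), Aar2 (0.09) and Eva1b (0.13), where the median gene was at 0.50. Their exons span 1942 to 3707 bases, and each was lowest in shSC 4. For C3 they were Cybb (0.36), a subunit of the phagocyte NADPH oxidase, Map4 (0.40), Abr (0.42), the membrane metalloproteinase gene Mmp14 (0.44) and Idua (0.45), where the median gene was at 1.34. Cybb had 280, 2219 and 782 CPM in shChi3l1 1 to 3, against 303, 1037, 445 and 600 CPM in shSC 1 to 4. The exons of the genes most like C3 span 4204 to 15143 bases. Among the 9 genes themselves C1qb and C1qc were closest, at 0.12, and C1qb and Cfp were at 0.21.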

How the data were processed

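Sorted macrophages were sequenced as 7 libraries, with cDNA from 10 ng of RNA by Takara's low-input SMART-Seq kit and Nextera XT on 1 ng of cDNA, per the labels' protocols. These libraries do not mark strand. The authors deposited whole-number counts per gene with exon coordinates, 1 file per library. Trim Galore, HISAT2, featureCounts and mm10 are named in the submitters' processing notes. Settings and versions were not stated there. Of 55385 IDs, 55144 matched GENCODE release 21 symbols, and the other 241 took under 0.002% of reads. Groups and replicate numbers came from sample titles.

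Genes were kept by filterByExpr at a minimum count of 10, and totals were scaled by TMM. The hairpin was tested over all 7 libraries by the quasi-likelihood F test of edgeR 4.0.16 (R 4.3.3) without covariates, and Benjamini-Hochberg adjustment ran over 15448 genes. CPM and RPKM used TMM-scaled totals and the files' exon lengths, and 0.5 was added to counts before logarithms. Alternatives used limma 3.58.1, DESeq2 1.42.0, other scaling and filters, and a loess trend with exon length (span 0.5). The test was checked on counts simulated from these data. It called 2% of 50 genes changed 2-fold and 34% of 50 changed 4-fold. At 8-fold and 16-fold it called 88% and 94%. Intervals and floors cover counting error only where stated, and PCR copies are not independent molecules.

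Same-numbered libraries, which the labels pair in a figure, deviated together from their group means. Over genes, r was 0.306, 0.260 and 0.188 for replicates 1 to 3, each above the 0.1 set for pairing. Libraries of unlike number also passed that limit, at 0.322 for shChi3l1 3 with shSC 2 and 0.200 for shChi3l1 2 with shSC 4. The main test left the pairing out. No libraries agreed within sampling noise.

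All 9 genes were named. In each other complement list, the rule named the 2 genes of smallest unadjusted p and the most abundant per length, and for C1q and C3 the 5 genes of nearest profile among those averaging a log2 CPM of 5 or more. Some genes of the lists are not reported here. The genes and lists were chosen with earlier results of these data known.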

Additional observations from a re-analysis of the deposited data

Results flagged for a closer look

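C5ar1 in shSC 4, at 473 CPM, stood apart from the other 3 shSC libraries, the nearest of which had 249 CPM. The gap was 0.85 of the group's range. Susd4 in shSC 4, at 5.25 CPM, also stood apart, with 1.24 CPM in the nearest shSC library and a gap of 0.834 of the range. Of 30 genes screened in the 4 shSC libraries these 2 were past Dixon's 95% limit, where chance flags about 1 gene in 20.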

How the results depend on the processing

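No complement gene passed an adjusted p of 0.05 under any of the alternatives run, and C1qa, C1qb, C1qc and C4b kept their direction in all 18 (0.26 to 0.57, 0.10 to 0.37, 0.02 to 0.28 and 0.59 to 2.04 on the log2 scale). Over all genes DESeq2 called 1 gene, the immunoglobulin gene Igkv4-58, named after its values were seen, and all other fits 0. An unadjusted p under 0.05 was found for 229 genes, and for 927 with no low-count filter, 701 with voom weights, 350 with DESeq2, 435 with the replicate block, 375 with the block and the length trend, 145 without shChi3l1 3 and shSC 4, and 143 to 908 when a library was left out. The signs of small fold changes turned as follows, and the cause was not tested. C3ar1 was at -0.0338 with DESeq2 size factors, -0.0337 with DESeq2's test, -0.13 with unscaled library totals, -0.0263 with no filter, -0.0287 with the replicate block, -0.0764 with the length trend and -0.0924 with both. C5ar1 was at 0.0835 with the replicate block, 0.00478 with voom weights, 0.11 with the block and the length trend, and 0.0679 without shChi3l1 3 and shSC 4. Cfp was at -0.0632 with unscaled totals. Of the other complement genes, 13 to 20 were higher over all settings, out of 23 to 42 tested. When a library was left out, the ranges were -0.39 to 1.64 for C3, -0.22 to 0.17 for C3ar1, -0.43 to 0.10 for C5ar1, -0.22 to 1.13 for Cfb and -0.0527 to 0.22 for Cfp. Unscaled totals shifted the median log2 fold change of all genes to -0.13, against 0.07 with TMM. By counts without length, the C1q shares were 19.7% for C1qa, 46.7% for C1qb and 33.6% for C1qc. The replicate block changed no call. Exact permutation tests of the 9 genes gave p of 0.200 to 1.00, and 3 libraries against 4 allow only 35 splits. The removal of shChi3l1 3 and shSC 4 and the length trend were chosen after seeing the data. With only 147 reads, C4b in shChi3l1 1 is the least precise value.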
